A study of Mus musculus with 36 samples.

Results

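Sept8, Ctse, C1qtnf12 and Ap3s1 are 4 of the 55414 genes counted in sorted blood stem and progenitor cells of mice that carry Kmt2a-AFF1, a fusion gene found in infant leukaemia. They were picked by measured values. In bone marrow (BM), the gap between their level in LK progenitors and that in stem cells and lymphoid-primed progenitors differed between leukaemic and control mice, and Sept8 was also higher in LK cells taken from the central nervous system (CNS) than in LK cells from BM. The contrasts that chose them are given below as descriptions, with no test.

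The series holds 36 libraries in 9 groups of 4. The leukaemia arm consists of miR-130b overexpressing Kmt2a-AFF1+ cells from mice with terminal leukaemia, sampled from CNS and from BM. The sample labels name miR-130b, whereas the design text of the series names miR-130a. The control arm consists of miR-scramble overexpressing Kmt2a-AFF1+ cells from BM of mice without leukaemia, so both arms carry the fusion. In each arm 3 populations were sorted among lineage-negative, c-Kit-positive cells. LK (labelled LK/CLP) lacks Sca-1, HSC (labelled HSC/MPP) has Sca-1 without Flt3, and LMPP has both. Each of 12 leukaemia mice gave 1 CNS and 1 BM library of a single population, and each of 4 control mice gave all 3 populations. No CNS library came from a control mouse. The microRNA and the leukaemia differ together between the arms and cannot be told apart, and the arms were deposited in separate tables.

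Sept8 encodes a septin, a GTPase that joins other septins in filaments at the cell cortex and at intracellular membranes. Ctse encodes cathepsin E, an aspartic protease of the endosomal system. C1qtnf12 encodes a secreted C1q/TNF-related protein, also called adipolin, studied mainly as a hormone of fat tissue. Ap3s1 encodes the small sigma subunit of AP-3, the adaptor complex that sorts cargo from endosomes to lysosomes and related organelles such as pigment and platelet granules. In healthy marrow the LK gate holds progenitors committed to red cells, megakaryocytes, granulocytes and macrophages, while HSC and LMPP stand earlier.

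The microRNAs named in the labels and in the design text are shown because it is unclear from them which one was overexpressed. Their mature sequences, from RefSeq on GRCm38.p6, carry the seed (bases 2 to 8) in capitals.
mmu-miR-130b-3p: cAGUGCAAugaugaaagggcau
mmu-miR-130a-3p: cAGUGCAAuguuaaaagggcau
The seeds are the same letters, so the match TTGCACT on a messenger RNA is shared. It was found once in the 3′ UTR of Sept8, at base 1302 of 3063, in a reference transcript of GRCm38 on the plus strand of chromosome 11.
Sept8 3′ UTR site: agtaaccgagcTTGCACTcgggaggtagg
The capitals mark the seed match. Of 4202 3′ UTRs of like length 18.8% hold at least 1 such match, and of all 21675 it is 9.58%. No match lay in the 3′ UTR of Ctse (563 bases), C1qtnf12 (130 bases) or Ap3s1 (804 bases). A match is a description of letters and shows no binding.

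A library held between 1.91 and 30.4 M counts (M for mega). Genes of sensory receptors, taken as silent in these cells, still carried counts, and a uniform background along the genome estimated from them made up 0.443 to 27.7% of the counts of a library. This background was 21.6 to 27.7% in control HSC and 6.48 to 12.3% in control LK, so it differs between populations. Levels are given in CPM, counts of a gene per M counts of its library. Because scaling depends on this background, fold changes are given on all genes that reached 10 counts in 4 or more libraries, and again on genes above background (a count over 3 times the background plus 10 in 4 or more libraries). Among the sort markers, Ly6a, which encodes Sca-1, followed the gates between LK and HSC. Ly6a averaged 1.45 CPM in CNS LK, 1.69 in BM LK and 2.14 in control LK, against 15.1 in CNS HSC, 15.3 in BM HSC and 13.2 in control HSC. Mean Kit ran from 90.8 CPM in CNS HSC to 195 CPM in control LK. Flt3 averaged 316 CPM in CNS LMPP, 326 in BM LMPP and 175 in control LMPP, and its mean in LK was 159 ± 53.5 CPM in CNS and 182 ± 85.2 in BM, against 28.1 ± 7.25 CPM in control LK (SD, n = 4). In HSC, gated without Flt3, its mean was 46.4 CPM in CNS and 51.0 CPM in BM, against 28.3 CPM in controls. In such bulk samples, fewer cells of a type and less RNA per cell cannot be told apart.

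Sept8 (ENSMUSG00000018398, chromosome 11, plus strand) was highest in control LK. Leukaemia BM LK replicates 1 to 4 had 7.42, 0.89, 1.37 and 0.83 CPM, against 88.9, 69.5, 74.8 and 90.4 CPM in control LK. The groups did not overlap, and replicate 1 stood above the other BM LK libraries. CNS LK had 47.9, 5.60, 10.2 and 4.68 CPM, which lies between those groups and does not overlap control LK. In HSC the values were 9.48, 11.8, 9.58 and 8.55 CPM in CNS and 17.01, 10.1, 12.3 and 14.0 CPM in BM, against 25.4, 26.3, 27.7 and 24.8 CPM in controls. Every leukaemia HSC library lay below every control HSC library in CPM, but not once the expected background was taken off: BM HSC then spanned 3.33 to 13.9 CPM, against 13.5 to 17.6 CPM in control HSC. In LMPP the values were 4.85, 1.52, 1.24 and 1.26 CPM in CNS and 2.30, 1.45, 2.09 and 3.16 CPM in BM, against 18.3, 18.6, 13.5 and 17.7 CPM in controls, again without overlap. Ordered by mean, Sept8 ran from control LK (80.9 ± 10.4 CPM, SD, n = 4) through control HSC (26.0 ± 1.26), CNS LK (17.1 ± 20.7), control LMPP (17.03 ± 2.38), BM HSC (13.4 ± 2.90), CNS HSC (9.85 ± 1.37), BM LK (2.63 ± 3.20) and BM LMPP (2.25 ± 0.703) to CNS LMPP (2.22 ± 1.76). Only the steps below control LK and below CNS HSC had no overlap between neighbours. The BM LK values rest on 10 to 111 counts a library, and the background expected over the Sept8 exons equals 35.1 to 350% of them, so 1 or more of these libraries cannot be told from background. In control LK the same share is 2.35 to 6.13%, and in control HSC it is 36.3 to 46.9%. It is 13.6 to 87.3% in CNS HSC, 18.0 to 76.2% in BM HSC and 31.4 to 65.1% in control LMPP. Less background, the means would be 4.16 CPM in CNS HSC, 8.26 CPM in BM HSC and 15.3 CPM in control HSC, and 7.50 CPM in control LMPP.

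Ctse (ENSMUSG00000004552, chromosome 1, plus strand) showed the same order of arms in LK with less spread. BM LK replicates had 7.48, 6.14, 5.37 and 3.95 CPM, and CNS LK had 8.37, 6.69, 6.65 and 4.71 CPM, against 46.8, 46.4, 57.4 and 56.9 CPM in control LK. Both leukaemia groups overlapped each other, and neither came near control LK. In HSC the values were 8.36, 13.02, 14.1 and 11.4 CPM in CNS and 9.72, 11.7, 15.8 and 13.5 CPM in BM, against 16.3, 16.1, 23.4 and 15.5 CPM in controls. In LMPP they were 6.75, 9.14, 6.09 and 4.43 CPM in CNS and 5.45, 8.08, 7.33 and 7.62 CPM in BM, against 14.5, 21.4, 11.9 and 14.7 CPM in controls. For HSC the BM group overlapped controls in range (9.72 to 15.8 against 15.5 to 23.4 CPM), and for LMPP the arms were apart in CPM. Background equals 19.7 to 42.7% of the Ctse count in control LMPP. Less background, control LMPP spanned 7.28 to 15.3 CPM, which overlaps CNS LMPP (4.34 to 8.64 CPM) and BM LMPP (5.12 to 7.82 CPM). By mean, control LK (51.9 ± 6.11 CPM, SD, n = 4) stood apart from control HSC (17.8 ± 3.71), control LMPP (15.6 ± 4.09), BM HSC (12.7 ± 2.59) and CNS HSC (11.7 ± 2.50). After a second gap in CPM came BM LMPP (7.12 ± 1.15), CNS LK (6.61 ± 1.5), CNS LMPP (6.60 ± 1.95) and BM LK (5.73 ± 1.48). Less background that gap closed, as CNS HSC then spanned 7.66 to 11.9 CPM.

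C1qtnf12 (ENSMUSG00000023571, chromosome 4, plus strand) was low in all groups but control LK. BM LK replicates had 4.54, 4.27, 5.01 and 3.57 CPM and CNS LK had 14.2, 4.33, 6.17 and 5.48 CPM, against 53.8, 42.1, 41.2 and 58.2 CPM in control LK. Control LK stood apart, and CNS LK replicate 1 was the highest leukaemia library. HSC had 1.64, 2.95, 7.25 and 3.41 CPM in CNS and 3.08, 4.80, 6.70 and 6.07 CPM in BM, against 7.47, 7.31, 5.53 and 8.73 CPM in controls. LMPP had 2.25, 2.57, 2.69 and 3.39 CPM in CNS and 4.24, 2.26, 2.62 and 3.16 CPM in BM, against 3.66, 7.45, 3.27 and 4.96 CPM in controls. Below control LK (48.8 ± 8.47 CPM, SD, n = 4) no step in the order of means separated neighbours: CNS LK 7.53 ± 4.48, control HSC 7.26 ± 1.32, BM HSC 5.16 ± 1.60, control LMPP 4.84 ± 1.89, BM LK 4.35 ± 0.605, CNS HSC 3.81 ± 2.41, BM LMPP 3.07 ± 0.862 and CNS LMPP 2.73 ± 0.481 CPM.

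Ap3s1 (ENSMUSG00000024480, chromosome 18, plus strand) had another pattern: its LK levels overlapped between the arms and its HSC and LMPP levels did not. BM LK replicates had 69.9, 100.3, 62.9 and 68.5 CPM and CNS LK had 106, 51.0, 48.6 and 69.2 CPM, against 64.6, 55.9, 62.4 and 58.2 CPM in control LK. These 3 groups were neighbours in the order of means (75.4 ± 16.9, 68.7 ± 26.5 and 60.2 ± 3.95 CPM, SD, n = 4), and each overlapped the next. HSC had 52.2, 24.04, 48.3 and 27.3 CPM in CNS and 64.4, 54.5, 56.1 and 28.6 CPM in BM, against 6.46, 4.18, 3.20 and 3.38 CPM in controls. LMPP had 22.9, 33.2, 26.4 and 37.0 CPM in CNS and 61.2, 39.4, 30.4 and 36.3 CPM in BM, against 5.56, 6.54, 6.75 and 5.04 CPM in controls. All 16 leukaemia HSC and LMPP libraries lay above all 8 control libraries of those populations. Background over the Ap3s1 exons equals 72.7 to 124% of the count in control HSC and 43.6 to 84.3% in control LMPP, so little of the control signal stands above it. Ap3s1 has the processed copies Ap3s1-ps1 and Ap3s1-ps2, between which reads could be split. Ap3s1-ps1 averaged 7.04 CPM in BM HSC against 1.21 CPM in control HSC, and Ap3s1-ps2 averaged 5.19 CPM against 0.262 CPM. In control HSC, background equals 54.9 to 154% of the Ap3s1-ps1 count, and 1.02 CPM of background is expected for Ap3s1-ps2. As reads could be split, the copies are not a separate observation.

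**Figure D1:**
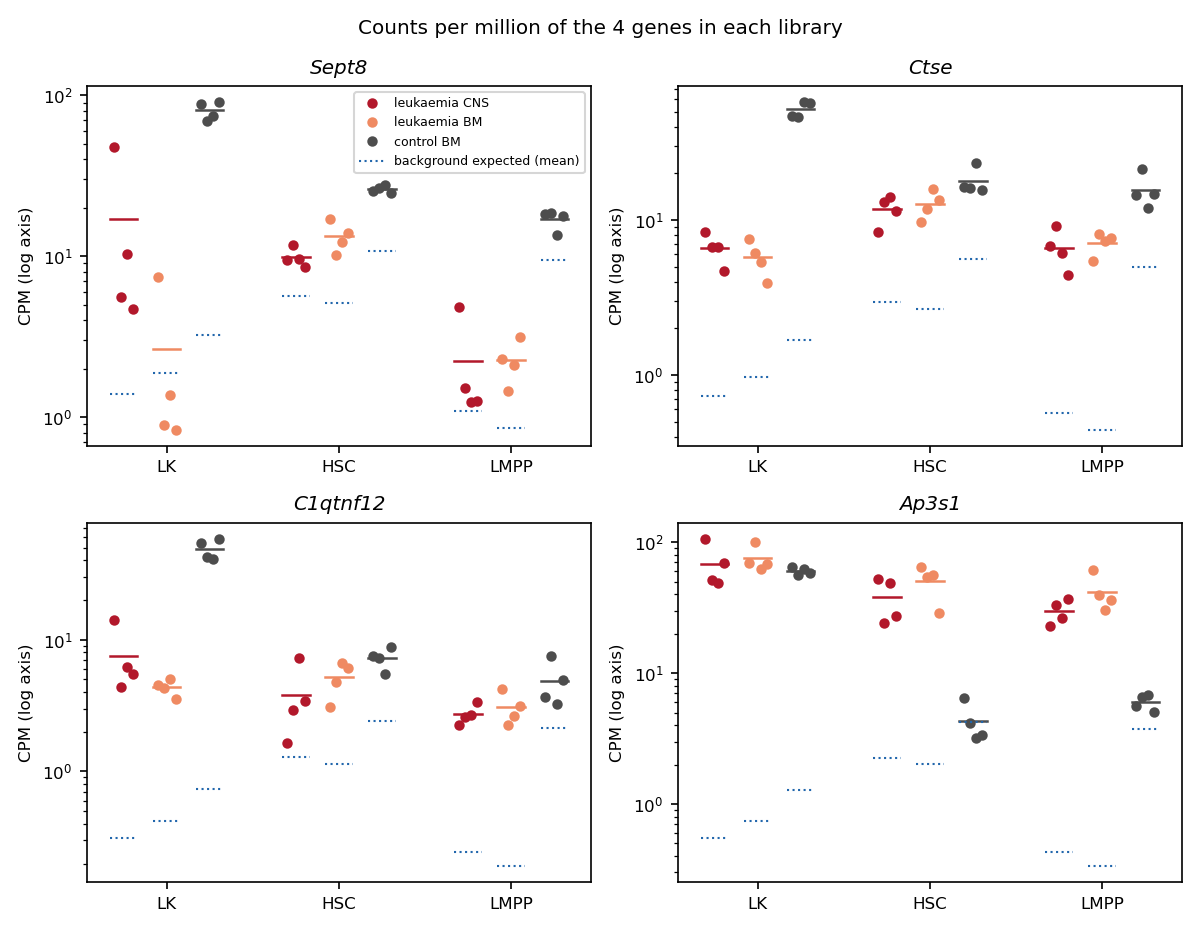
CPM (log axis) of each gene in every library, with CNS left of BM left of control for LK, HSC and LMPP, and the expected background as dotted marks. Control LK stands highest for Sept8, Ctse and C1qtnf12 (80.9, 51.9 and 48.8 CPM on average), whereas Ap3s1 is lowest in control HSC and control LMPP (4.30 and 5.97 CPM).

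Per kilobase of exon, which allows the genes to be set beside each other, mean levels in BM LK were 0.432 CPM per kb for Sept8, 1.81 for Ctse, 3.18 for C1qtnf12 and 31.4 for Ap3s1. In CNS LK they were 2.81, 2.08, 5.52 and 28.6 CPM per kb in the same gene order, and in control LK they were 13.3, 16.4, 35.7 and 25.1 CPM per kb. C1qtnf12 was thus the highest of the 4 in control LK and Ap3s1 the highest in both leukaemia LK groups.

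How the LK difference was built was described by the fold changes that chose the genes. In control BM the log2 fold change of LK over HSC was 3.03 ± 0.28 for Sept8, 2.89 ± 0.25 for Ctse, 4.17 ± 0.30 for C1qtnf12 and 5.16 ± 0.30 for Ap3s1 (SE). On genes above background these were 1.36 ± 0.12, 1.26 ± 0.14, 2.50 ± 0.19 and 3.49 ± 0.18. Of all genes tested 44.7%, and of genes above background 70.5%, passed an edgeR adjusted p of 0.05 in this comparison. In leukaemia BM the LK over HSC values were -1.87 ± 0.64, -0.55 ± 0.39, 0.44 ± 0.50 and 1.04 ± 0.53, and on genes above background -2.23 ± 0.64, -0.99 ± 0.25, -0.06 ± 0.36 and 0.70 ± 0.26. By these values Sept8 and Ctse stood lower in LK than in HSC in leukaemia and higher in controls, while Ap3s1 kept its direction with a smaller gap. For C1qtnf12 the sign in leukaemia turned with the scaling and both values lay within 1 SE of 0.

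Against LMPP the control BM values were 3.4 ± 0.28 for Sept8, 2.87 ± 0.25 for Ctse, 4.52 ± 0.30 for C1qtnf12 and 4.47 ± 0.28 for Ap3s1. In leukaemia BM they were -0.02 ± 0.64, -0.43 ± 0.40, 0.37 ± 0.51 and 0.68 ± 0.52. The difference between the arms, LK minus the mean of HSC and LMPP in leukaemia less the same in controls, was -4.11 ± 0.53 for Sept8, -3.31 ± 0.40 for Ctse, -3.89 ± 0.46 for C1qtnf12 and -3.92 ± 0.51 for Ap3s1. On genes above background it was -2.90 ± 0.47, -2.23 ± 0.22, -2.81 ± 0.30 and -2.73 ± 0.30. These sizes moved by more than 1 unit between scalings with the direction kept. In this contrast 13.5% of all genes tested and 20% of genes above background were lower at an edgeR adjusted p under 0.05, and 13.9% and 32.9% differed in either direction.

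**Figure D2:**
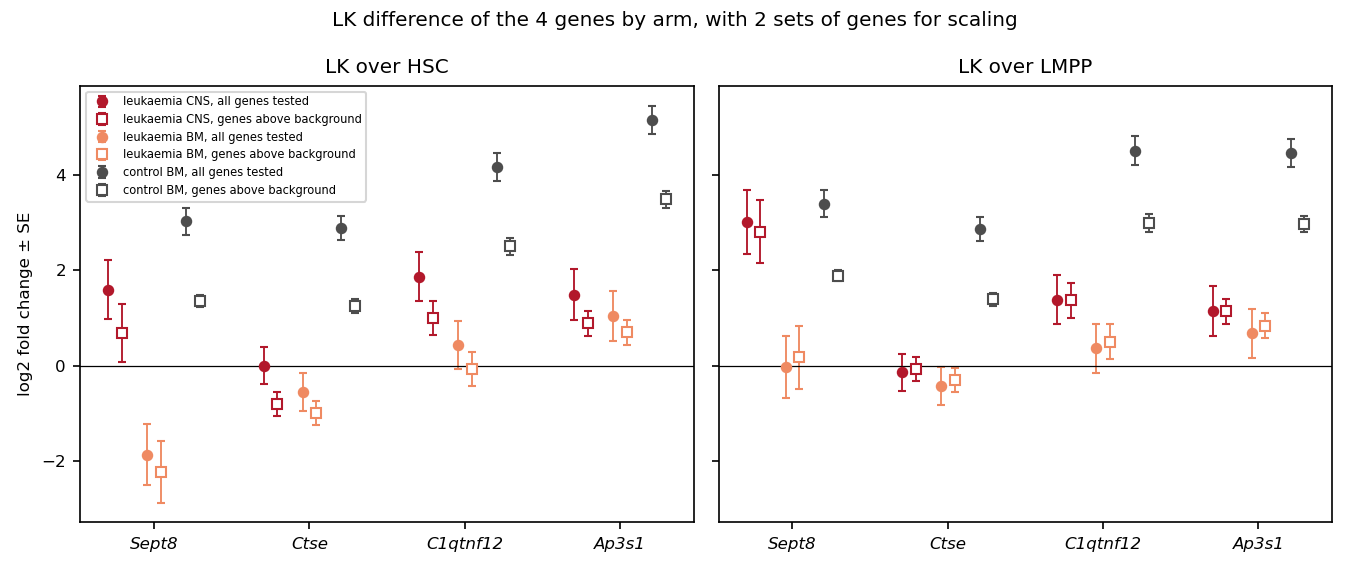
Log2 fold change (with SE) of LK over HSC and of LK over LMPP for each gene in CNS, leukaemia BM and control BM; filled points use all genes tested, open points genes above background. Control values lie between 2.87 and 5.16 on all genes, and leukaemia BM values between -1.87 and 1.04.

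The parts of that difference separate the genes. For leukaemia BM over control BM within LK, the log2 fold change was -4.62 ± 0.47 for Sept8, -2.74 ± 0.33 for Ctse and -3.02 ± 0.38 for C1qtnf12, but 0.75 ± 0.39 for Ap3s1 (SE; -4.84 ± 0.42, -3.07 ± 0.19, -3.37 ± 0.26 and 0.43 ± 0.23 on genes above background). Within HSC, Ap3s1 was 4.85 ± 0.47 and within LMPP 4.5 ± 0.46 (3.53 ± 0.27 and 2.79 ± 0.26 on genes above background). Sept8, Ctse and C1qtnf12 thus entered the set through LK, and Ap3s1 through HSC and LMPP. For the first 3 the direction in the other populations depended on scaling. Sept8 gave 0.23 ± 0.41 in HSC and Ctse gave 0.66 ± 0.31 and C1qtnf12 0.64 ± 0.37 on all genes, against -0.98 ± 0.36, -0.53 ± 0.18 and -0.52 ± 0.25 on genes above background. In LMPP Sept8 was lower under both scalings (-1.26 ± 0.43 and -2.90 ± 0.42), while Ctse (0.48 ± 0.32 and -1.16 ± 0.18) and C1qtnf12 (1.10 ± 0.38 and -0.60 ± 0.26) turned. The median over all genes tested was -0.25 in LK, -0.12 in HSC and -1.10 in LMPP, and on genes above background it was -0.04, -0.03 and 0.02.

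The CNS libraries were not used to choose Ctse, C1qtnf12 and Ap3s1, although they come from the same mice as the BM libraries that were. There, Ap3s1 was higher in CNS LK than in CNS HSC on genes above background, by a log2 fold change of 0.89 ± 0.26 (SE, edgeR adjusted p = 0.042), and no other member tested passed. In that comparison 7.97% of genes above background passed. With all genes and their scaling the Ap3s1 value was 1.5 ± 0.53 with an edgeR adjusted p of 0.23, where 0 of 40332 genes passed by edgeR, 5429 had an unadjusted p under 0.05 and 2357 passed by DESeq2. C1qtnf12 gave 1.86 ± 0.51 (edgeR adjusted p = 0.11) on all genes and 1.01 ± 0.36 (edgeR adjusted p = 0.072) above background. Ctse gave 0.01 ± 0.39 (edgeR adjusted p = 0.99) and -0.80 ± 0.25 (0.051 above background). The processed copies of Ap3s1 passed too above background (edgeR adjusted p = 0.043 for Ap3s1-ps1 and 0.042 for Ap3s1-ps2). As reads could be split, these calls are not separate from that of Ap3s1. Sept8, chosen partly in CNS LK, was 1.60 ± 0.62 and 0.68 ± 0.61 without a test.

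Against CNS LMPP, Ap3s1 in CNS LK gave 1.15 ± 0.53 on all genes and 1.15 ± 0.26 above background, with edgeR adjusted p-values of 1.00 and 0.053. C1qtnf12 gave 1.39 ± 0.51 and 1.38 ± 0.36 (edgeR adjusted p of 1.00 and 0.085), and Ctse gave -0.14 ± 0.39 and -0.06 ± 0.25 (1.00 and 0.96). None of these 3 passed, and the share of genes that did was 0.00496% of all tested and 0.372% of those above background. Sept8 was described by 3.02 ± 0.66 and 2.81 ± 0.66.

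Stem cells against lymphoid-primed progenitors is a comparison without LK, though its libraries also entered the contrasts that chose the genes. On genes above background, Sept8 in CNS HSC over CNS LMPP had a log2 fold change of 2.13 ± 0.65 (edgeR adjusted p = 0.037), where 12.9% of genes passed. In control HSC over control LMPP the value was 0.54 ± 0.13 (edgeR adjusted p = 0.039), where 2.23% passed. Sept8 entered these fits mainly through other libraries: its count was past the background filter in 1 of 4 CNS HSC and 1 of 4 CNS LMPP libraries, and in 0 of 4 control HSC and 1 of 4 control LMPP libraries. Its count was past that filter in 3 of 4 CNS LK and 3 of 4 BM HSC libraries. In the control fit it was past it in 4 of 4 control LK libraries, a group that also chose the gene. CNS LK chose Sept8 too. Nothing is therefore read from the CNS call or from the control call. Less background, Sept8 spanned 1.5 to 8.19 CPM in CNS HSC and 0.562 to 2.23 CPM in CNS LMPP, which overlap. In controls it spanned 13.5 to 17.6 CPM in HSC and 4.70 to 12.2 CPM in LMPP, which do not. In leukaemia BM the Sept8 value was 2.40 ± 0.67 (edgeR adjusted p = 0.13), with 0.0693% passing. On all genes none of these Sept8 values passed: 1.42 ± 0.64 in CNS, 1.84 ± 0.65 in BM and 0.37 ± 0.26 in controls, with edgeR adjusted p-values of 0.24, 0.29 and 0.79, against median shifts of 0.68 in CNS and 0.72 in BM. The share of all genes that passed was 0.0595% in CNS, 0% in BM and 0.183% in controls. In BM, where 0 genes passed by edgeR, 6785 had an unadjusted p under 0.05 and 265 passed by DESeq2. Ctse, C1qtnf12 and Ap3s1 passed in none of these comparisons by edgeR. Their values above background were 0.70 ± 0.26, 0.57 ± 0.37 and 0.14 ± 0.26 in BM, and 0.73 ± 0.25, 0.37 ± 0.36 and 0.26 ± 0.26 in CNS. In controls they were 0.14 ± 0.15, 0.50 ± 0.21 and -0.52 ± 0.20. The smallest edgeR adjusted p among these was 0.053, for Ctse in CNS.

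CNS and BM cells of the same mouse could be set side by side in 4 LK, 4 HSC and 4 LMPP mice. Sept8 was 5.60 to 7.46 times as high in CNS LK as in the BM LK of the same mouse, in 4 of 4 mice. These are ratios of CPM with background left in. Sept8 was past the background filter in 3 of 4 CNS LK and 0 of 4 BM LK libraries. Less background, it spanned 2.90 to 47.5 CPM in CNS LK and -2.23 to 4.43 CPM in BM LK, so the ratio is not defined in every mouse. In HSC the Sept8 ratio was 0.557 to 1.16, above 1 in 1 of 4 mice, and in LMPP 0.398 to 2.11, above 1 in 2 of 4. Replicate 1 was the mouse with the highest Sept8 in CNS LK and in BM LK, and its ratio lay within the range of the other mice. The LK ratio chose the gene, so it is a description: the fitted log2 fold change was 3.06 ± 0.66 (SE), and 2.90 ± 0.44 with mouse as a block. Without CNS LK replicate 1 it was 1.71 and without BM LK replicate 1 it was 4.25, whereas with both libraries of that mouse removed it was 2.70 ± 0.58. The difference of that value from the mean over HSC and LMPP was 3.25 ± 0.78.

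Ctse was higher in CNS LK in 4 of 4 mice by ratios of 1.09 to 1.24, and C1qtnf12 in 4 of 4 mice by 1.02 to 3.11. Ap3s1 was higher in CNS LK in 2 of 4 mice (0.509 to 1.52), in 0 of 4 HSC pairs (0.441 to 0.954) and in 1 of 4 LMPP pairs (0.373 to 1.02). None of these passed. The log2 fold changes of CNS LK over BM LK were 0.44 ± 0.39 for Ctse, 1.01 ± 0.50 for C1qtnf12 and 0.14 ± 0.52 for Ap3s1, each with an edgeR adjusted p of 1.00. Of all genes tested 0% passed by edgeR, 433 had an unadjusted p under 0.05, and DESeq2 called 0. For CNS HSC over BM HSC the values were -0.41 ± 0.61 for Sept8, -0.12 ± 0.39 for Ctse, -0.41 ± 0.50 for C1qtnf12 and -0.31 ± 0.52 for Ap3s1. For CNS LMPP over BM LMPP they were 0.02 ± 0.66, 0.14 ± 0.40, -0.01 ± 0.51 and -0.33 ± 0.52. All of these had an edgeR adjusted p of 1.00. In HSC 0 genes passed by edgeR and 0 by DESeq2, with 304 at an unadjusted p under 0.05. In LMPP 0 passed by edgeR and 9 by DESeq2, with 684 at an unadjusted p under 0.05. The difference of the CNS effect in LK from that in HSC and LMPP was 0.42 ± 0.48 for Ctse, 1.22 ± 0.62 for C1qtnf12 and 0.46 ± 0.64 for Ap3s1 (edgeR adjusted p of 1.00). For that difference 0 genes passed by edgeR and 0 by DESeq2, with 481 at an unadjusted p under 0.05.

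**Figure D3:**
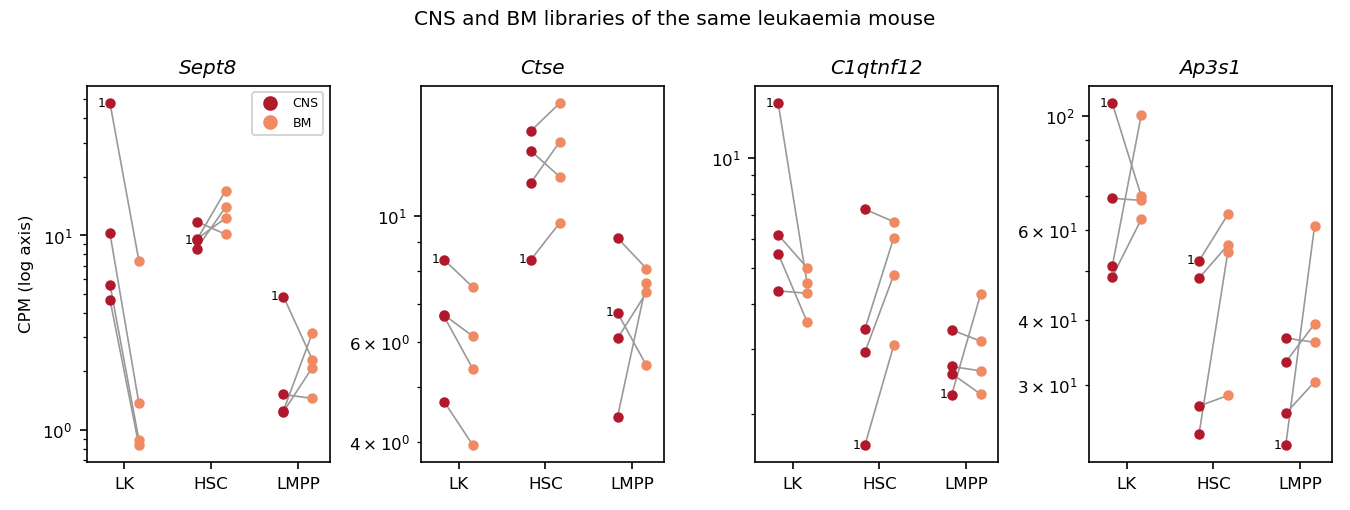
CPM (log axis) of each gene in CNS and BM cells of the same mouse, a line per mouse, for LK, HSC and LMPP; the mouse of replicate 1 is marked 1. Sept8 lies higher in CNS in 4 of 4 LK mice, by ratios of 5.60 to 7.46, whereas Ctse lies 1.09 to 1.24 times and Ap3s1 0.509 to 1.52 times as high in CNS LK as in BM LK. Background is left in, and Sept8 was past the background filter in 0 of 4 BM LK libraries.

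In LK, most markers of red cell development were highest in controls, as were the 3 genes Sept8, Ctse and C1qtnf12. Klf1, a red cell transcription factor, had 14.2, 3.51, 2.70 and 2.90 CPM in CNS LK and 2.41, 0.356, 0.537 and 0.531 CPM in BM LK, against 50.4, 37.0, 38.7 and 47.8 CPM in control LK. The order of the groups and the high replicate 1 are those of Sept8. Klf1 was higher in CNS LK than in BM LK in 4 of 4 mice (ratios 5.02 to 9.87) and Gata1, a transcription factor of red cells and megakaryocytes, in 4 of 4 (1.75 to 4.64). These ratios rest on low BM LK levels, 0.356 to 2.41 CPM for Klf1 and 0.607 to 3.34 CPM for Gata1, with background left in. Over the list of 29 red cell genes the summed level was 297 to 953 CPM in CNS LK and 283 to 564 CPM in BM LK, against 1403 to 1772 CPM in control LK, and replicate 1 was highest in both leukaemia groups. Outside LK the order differed. The list averaged 614 CPM in CNS HSC and 605 CPM in BM HSC, against 567 CPM in control HSC. In LMPP the means were 446 CPM in CNS, 595 CPM in BM and 457 CPM in controls. In CPM with background left in, the 3 genes had their highest means within HSC and within LMPP in controls. Less background, C1qtnf12 in LMPP averaged 2.70 CPM in controls and 2.88 CPM in leukaemia BM. The direction of the 3 genes between the arms in HSC depended on scaling, as did that of Ctse and C1qtnf12 in LMPP. Icam4 was the only gene of that list at 0 in all libraries of a group, as it was in BM LK. In leukaemia BM LK over control LK, 19 of 26 list genes above background fell and 2 rose, with a median of -2.97 against -0.04 over all genes, of which 17.1% passed in either direction. The 2 that rose were the globins Hbb-bt (4.43) and Hbb-bs (3.98), with edgeR adjusted p-values of 4.4e-06 and 1e-05, while Klf1 fell by 5.38 and Gata1 by 4.11 (edgeR adjusted p = 1e-07 and 1.6e-07). In the difference by disease, 0 of 26 list genes above background rose and 13 fell, where 20% of all genes fell, with a median log2 value of -1.40 against 0.08 over all genes; Klf1 fell by 4.35 (edgeR adjusted p = 2.3e-05) and Car1, a carbonic anhydrase, fell by 5.24 (edgeR adjusted p = 5.2e-05). In CNS LK over BM LK 0 of 21 passed, with 18 of 21 positive and a median of 0.89 against 0.01. On genes above background, Klf1 and Gata1 were also higher in CNS LK than in CNS LMPP (3.70 and 3.32, edgeR adjusted p = 0.022 and 0.036), where 0.372% passed. They were higher in CNS HSC than in CNS LMPP too (3.04 and 3.44, edgeR adjusted p = 0.01 and 0.0086), where 12.9% passed. With all genes tested, 0 genes passed as higher in the first of these comparisons and 1 in the second. The part of red cell progenitors in the values of Sept8, Ctse and C1qtnf12 was not tested.

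Summed megakaryocyte markers were 90.7 to 175 CPM in CNS LK and 98.6 to 199 CPM in BM LK, against 117 to 158 CPM in control LK. Mast cell and basophil markers were 94.4 to 229 CPM in CNS LK and 102 to 153 CPM in BM LK, against 172 to 186 CPM in control LK. Macrophage and microglia markers were 230 to 446 CPM in CNS LK and 303 to 356 CPM in BM LK, against 235 to 297 CPM in control LK. Neural markers were 43.9 to 81.8 CPM in CNS LK and 36.4 to 70.1 CPM in BM LK, against 66.1 to 97.3 CPM in control LK, and lymphoid markers were 12.7 to 41.2 CPM in CNS LK and 14.7 to 60.1 CPM in BM LK, against 33.2 to 60.8 CPM in control LK. Neutrophil genes reached 124 to 987 CPM in CNS LK and 473 to 7358 CPM in BM LK, against 29.6 to 48.7 CPM in control LK. Genes of primary granules, made in granulocyte progenitors, summed to 946 to 2204 CPM in CNS LK and 1428 to 2095 CPM in BM LK, against 4523 to 6229 CPM in control LK and 79.8 to 109 CPM in control HSC. Mpo, 1 of them, averaged 757 CPM in leukaemia BM HSC and 49.7 CPM in control HSC, a gap in the same direction as that of Ap3s1. In LK both lists separate the arms, the granule list with control LK highest, as for Sept8, Ctse and C1qtnf12, and the neutrophil list with control LK lowest. The part of granulocyte progenitors or neutrophils in the values of the 4 genes was not tested.

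**Figure D4:**
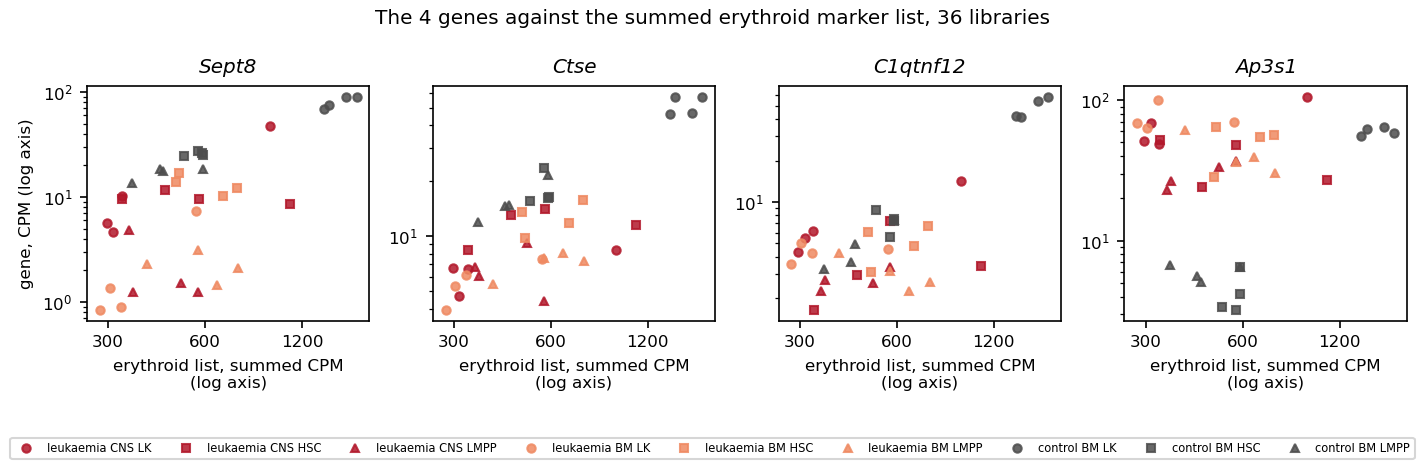
CPM (log axes) of each gene against the summed CPM of 29 red cell genes in the 36 libraries, coloured by group. Control LK libraries, at 1403 to 1772 CPM of red cell genes, hold the highest Sept8, Ctse and C1qtnf12.

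Over the 36 libraries, which share depth and background within groups, the Pearson correlation of log2(CPM + 1) was 0.867 between Sept8 and Ctse, 0.774 between Sept8 and C1qtnf12 and 0.810 between Ctse and C1qtnf12. The Spearman values were 0.885, 0.718 and 0.603 in that order. The genes were chosen by a contrast over the BM libraries among these. Correlations between them are partly set by that choice, and nothing is read from them. Ap3s1 correlated at -0.23 with Sept8, -0.22 with Ctse and 0.16 with C1qtnf12. Among 19310 genes with a mean of at least 3 CPM, those most like Sept8 were Atp1b2 (0.946), Ermap (0.946), Gata1 (0.944) and Rhag (0.939), and the same 4 genes came first by Spearman correlation. Ermap, Gata1 and Rhag are on the red cell list. Ermap, a red cell membrane protein, averaged 18.0 CPM in CNS LK and 3.92 CPM in BM LK, against 125 CPM in control LK. Ctse was most like Spire1 (0.917), Aplp2 (0.912), Samd14 (0.908) and Tal1 (0.905), and C1qtnf12 most like Mthfd1 (0.904), Car1 (0.904), Rpia (0.898) and Mns1 (0.893). Ap3s1 was most like Atp8b4 (0.971), F630028O10Rik (0.961), Cebpa (0.960) and its own copy Ap3s1-ps2 (0.956). Cebpa, a transcription factor of granulocyte and macrophage progenitors, averaged 66.6 CPM in CNS LK, 68.5 CPM in BM LK and 60.8 CPM in control LK, against 6.28 CPM in control HSC, much as Ap3s1 did. By Spearman correlation, 1 of the 4 genes named for C1qtnf12 and none of those for Ctse and Ap3s1 were again among the first 4. For C1qtnf12 the Spearman values were 0.622 with Mthfd1, 0.706 with Car1, 0.819 with Rpia and 0.610 with Mns1. The points are groups of like libraries, so these values describe the 9 groups more than 36 separate measurements.

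Among septins other than Sept8, 2 of 9 above background fell and 0 rose in the difference by disease: Sept11 fell by 0.60 and Sept7 fell by 0.64 (edgeR adjusted p = 0.014 and 0.033), against -2.90 for Sept8. Over all genes above background 20% were lower and 32.9% passed in either direction, a share like that of the septins. The median of the 9 was 0.33 and that of all genes 0.08. In leukaemia BM LK over control LK, Sept1, Sept9, Sept6 and Sept3 rose (log2 1.63, 0.86, 0.92 and 2.26), and Sept4 fell by 1.48, with edgeR adjusted p-values of 0.00025 to 0.032. There 17.1% of genes above background passed. Per kilobase, Sept8 stood at 0.432 CPM per kb in BM LK, against 20.8 for Sept9 and 17.6 for Sept1. In control LK it was 13.3 CPM per kb, beside 12.6 for Sept9 and 6.19 for Sept1, the highest mean among the 13 septins ranked. The 12 other septins matched 13 identifiers, and 1 of these, named Sept2, was at 0 in all control LK libraries. Each septin was ranked by 1 identifier, so Sept2 may stand at 0 in this ranking.

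Of cathepsins other than Ctse, 1 of 12 above background rose and 4 fell in the difference by disease, where 32.9% of all genes passed, with a median of -0.11. The neutrophil serine protease Ctsg fell by 4.15, the aspartic protease Ctsd by 1.28, and the cysteine proteases Ctsz and Ctsb by 1.79 and 0.98 (edgeR adjusted p = 4.1e-06, 0.00013, 0.00024 and 0.03). In HSC, 8 of 12 rose and 1 fell in leukaemia BM over control, where 48.1% of genes above background passed, and Ctsg and Ctsz gave 3.89 and 2.28 while Ctse was -0.53 ± 0.18. Per kilobase, Ctse averaged 1.81 CPM per kb in BM LK and 16.4 CPM per kb in control LK, and Ctsg, the highest cathepsin in both, averaged 241 and 350.

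Of C1q/TNF-related genes other than C1qtnf12, only Erfe, the red cell hormone erythroferrone, was above background in the BM libraries of both arms, and it did not pass in the difference by disease (0 of 1 tested). In control LK C1qtnf12 had 35.7 CPM per kb and the next highest member measured, C1qtnf6, had 1.44. C1qtnf5 was at 0 in every library.

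Among AP-3 subunits other than Ap3s1, Ap3m2 rose by 1.29 and Ap3b1 fell by 0.68 in the difference by disease (edgeR adjusted p = 0.023 and 0.033), of 5 above background, where 32.9% of all genes passed. In leukaemia BM HSC over control HSC, Ap3b1, which encodes the large beta subunit found in blood cells, rose by 1.00, Ap3m2 fell by 1.17 and Ap3s2, the other sigma subunit, fell by 0.37 (edgeR adjusted p = 0.00041, 0.0085 and 0.046), of 5 above background and with 48.1% of all genes passing. Ap3s1 was 3.53 ± 0.27 there. In control HSC Ap3s1 had 1.79 CPM per kb, against 8.07 for Ap3b1 and 3.5 for Ap3s2. In BM HSC of leukaemia it had 21.2 CPM per kb, against 16.3 for Ap3b1 and 2.75 for Ap3s2.

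**Figure D5:**
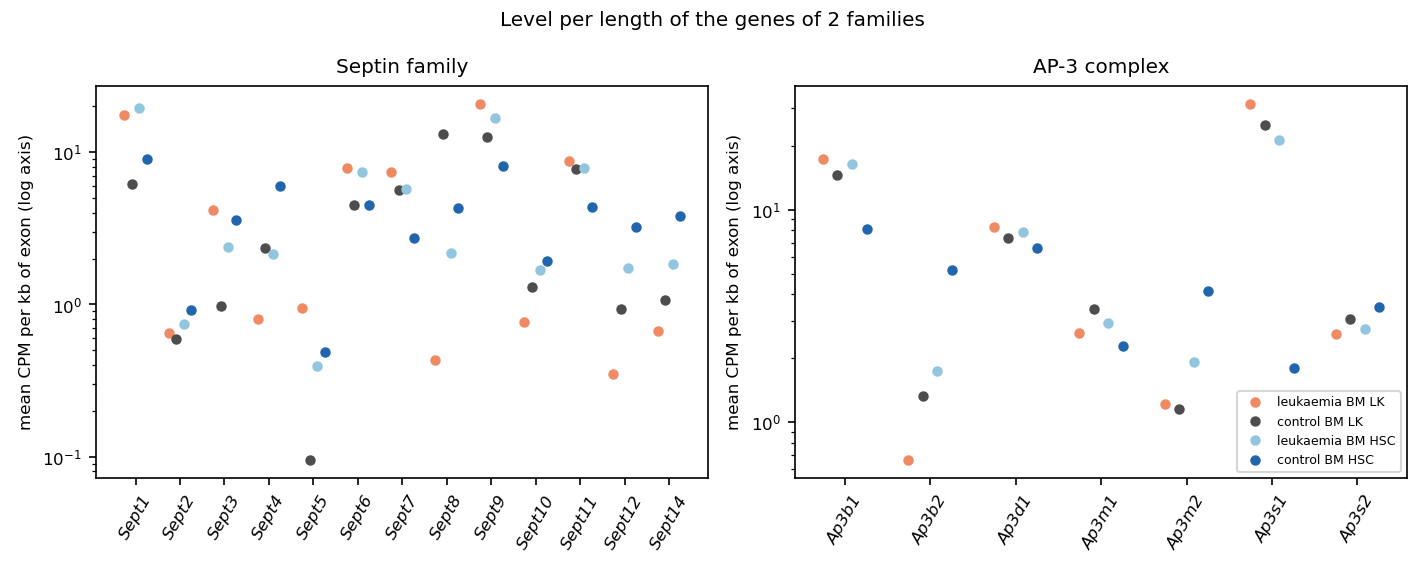
Mean CPM per kb (log axis) of septins and of AP-3 subunits in leukaemia BM LK, control BM LK, leukaemia BM HSC and control BM HSC. Sept8 is at 0.432 in leukaemia BM LK and 13.3 in control BM LK, and Ap3s1 at 21.2 in leukaemia BM HSC and 1.79 in control BM HSC.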

How the data were processed

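RNA of sorted cells was made into libraries with the SMARTer Stranded Total RNA-Seq kit for low input, per the labels' protocols. The authors deposited 1 table for 24 leukaemia libraries and 1 for 12 control libraries, whose names call the values normalised. The deposited values are whole counts with unequal totals, so they were treated as raw counts. Per the submitters' processing notes the genome build was GRCm39 and DESeq2 was used. For the aligner, the counter and strandedness, names are not given in the sources used. Symbols (52081 identifiers) and exon lengths (52133) came from an annotation of GRCm38, matched by identifier.

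Counts were tested with edgeR 4.0.16 in R 4.3.3 (glmQLFit, glmQLFTest, TMM scaling, at least 10 counts in at least 4 libraries, Benjamini-Hochberg threshold 0.05). Leukaemia libraries, control libraries and the BM libraries of both arms were fitted separately, with no mouse term. Background was estimated from 1512 sensory receptor genes, and exceeding it was a filter chosen after seeing the data. Alternatives were DESeq2 1.42.0, its size factors, library totals, other filters, the groups compared alone, a block, and each library left out. The block was the mouse for CNS over BM and for controls. Between populations of leukaemia libraries it was the replicate number, and libraries of different populations that share a number there come from different mice. CNS and BM libraries with the same population and number come from the same mouse, per the labels, and control libraries that share a number share a mouse. Deviations from group means correlated at a median of 0.15 over 12 leukaemia pairs (-0.53 to 0.75, 6 of them over 0.1) and 0.0076 over 12 control pairs. Scripts were tested on simulated data.

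The members and gene lists were chosen with earlier results of these data known. Named genes are the 4 members, the 4 genes with the highest correlation with each, at most 4 list members that passed by smallest p, and the sort markers; others were named after their values were seen. Each group holds 4 mice. The p-values of the main fits rest on a spread pooled over all libraries of a fit, and leave out that some libraries share a mouse.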

Additional observations from a re-analysis of the deposited data

Results flagged for a closer look

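Of 36 sets of 4 libraries (4 genes in 9 groups), 5 held a library far from the other 3, where chance gives about 1 in 20. Sept8 in CNS LK was 47.9 CPM in replicate 1 and 4.68 to 10.2 CPM in the others. In BM LK of the same mouse it was 7.42 CPM, against 0.835 to 1.37 CPM in the others. Sept8 in CNS LMPP was 4.85 CPM in replicate 1 and 1.24 to 1.52 CPM in the others. In control LMPP it was 13.5 CPM in replicate 3 and 17.7 to 18.6 CPM in the others. Ctse in control HSC was 23.4 CPM in replicate 3 and 15.5 to 16.3 CPM in the others.

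For Sept8, in CPM with background left in, every leukaemia BM LK library lay below every leukaemia BM HSC library. Every control LK library lay above every control HSC library. The log2 difference of LK over HSC between the arms was -4.85 on all genes tested. Ctse showed the same arrangement in CPM, with -3.40. Less background, Sept8 reached 4.43 CPM in BM LK and began at 3.33 CPM in BM HSC, so these groups overlap. Sept8 was past the background filter in 0 of 4 BM LK libraries. The LK over HSC values moved with scaling, as given above. Both genes were picked for such a difference, and it was not tested.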

How the results depend on the processing

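Of all recomputed values for the comparisons and the members in them, 859 kept their direction and side of the threshold or moved within their spread, 91 moved, 12 gained a call, 0 lost one and 16 turned sign. Signs were read only where at least 1 of the values exceeded its SE. The causes were not tested.

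On genes above background the by-disease values were -2.90 for Sept8, -2.23 for Ctse, -2.81 for C1qtnf12 and -2.73 for Ap3s1. DESeq2 gave -3.17, -2.45, -3.05 and -2.99, its size factors in edgeR -3.16, -2.46, -3.04 and -2.99, and library totals -3.0, -2.35, -2.93 and -2.85. Sept8 in CNS LK over CNS HSC was 0.68 above background, 0.86 by DESeq2 and with its size factors, 0.79 on library totals and 0.20 without LK mouse 1, where CNS LK over CNS LMPP was 1.61.

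Calls gained by DESeq2 were Ap3s1 in CNS LK over CNS HSC (1.01, adjusted p = 0.025) and over CNS LMPP (1.16, 0.014), C1qtnf12 in CNS LK over CNS HSC (1.15, 0.045), and Sept8 in HSC over LMPP in BM (2.35, 0.047) and CNS (2.01, 0.025). Calls gained above background were Ap3s1 in CNS LK over CNS HSC (0.89) and Sept8 in HSC over LMPP in CNS (2.13) and controls (0.54). For Sept8, 1 of 4 HSC and 1 of 4 LMPP libraries were past the background filter in CNS. In controls these were 0 of 4 and 1 of 4, and the gene entered that fit through control LK. Nothing is read from the Sept8 calls above background in CNS and in controls. With no filter C1qtnf12 in CNS LK over CNS HSC was 2.13 (edgeR adjusted p = 0.049), and with only the groups compared Sept8 in BM HSC over LMPP was 1.95 (edgeR adjusted p = 0.042).

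Signs turned, with no call, for Ctse in CNS LK over CNS HSC (-0.80 above background, -0.68 by DESeq2 and its size factors, -0.83 on totals) and in CNS HSC over LMPP (0.73, 0.62, 0.62 and 0.83 in that order). C1qtnf12 in BM HSC over LMPP turned to 0.57, 0.47, 0.49 and 0.73, and in CNS HSC over LMPP to 0.37 above background and 0.48 on totals. On totals Ap3s1 in CNS HSC over LMPP was 0.35 and Ctse in control HSC over LMPP 0.20.

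Counts of genes called moved most. For CNS LK over CNS HSC they were 0 by edgeR, 2357 by DESeq2, 203 with its size factors, 1265 above background, 3 on totals, 325 with no filter and 313 without LK mouse 1. For CNS LK over CNS LMPP DESeq2 gave 315, its size factors 5, genes above background 59, no filter 20, the groups alone 102, and both the replicate block and leaving out LK mouse 1 gave 1. For BM HSC over LMPP DESeq2 gave 265, genes above background 11, no filter 14, the groups alone 165 and the block 1. For CNS HSC over LMPP, with 24 in the chosen fit, DESeq2 gave 8466, its size factors 664, genes above background 2049, totals 97, no filter 85, a filter of CPM at least 1 gave 50, the groups alone 8 and the block 6. For control HSC over LMPP, with 76, DESeq2 gave 123, its size factors 44, genes above background 249, the groups alone 35 and the block 46. For CNS LMPP over BM LMPP DESeq2 gave 9, the block above background 321, none of them a member, and the block without LK mouse 1 gave 7. For CNS LK over BM LK the block gave 1 gene with and without the background filter and 0 without LK mouse 1; the gene is Sept8, picked on this contrast, so nothing is read from it. The block changed no other member's call. On scaled library sizes the mean levels in control LK were 148.6 CPM for Sept8, 92.6 for Ctse, 90.3 for C1qtnf12 and 109.3 for Ap3s1.

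Leaving out each library gave counts of 0 to 20 for CNS LMPP over BM LMPP, 0 to 5190 for CNS LK over CNS HSC (highest without CNS HSC replicate 1), 0 to 2 for CNS LK over CNS LMPP, 0 to 6 for BM HSC over LMPP, 4 to 6261 for CNS HSC over LMPP (highest without CNS HSC replicate 1) and 26 to 222 for control HSC over LMPP. Sept8 ranged over 1.71 to 4.25 in CNS LK over BM LK, 0.25 to 1.95 in CNS LK over CNS HSC, 1.66 to 3.47 in CNS LK over CNS LMPP, 1.9 to 4.43 in the CNS effect in LK less HSC and LMPP, and -5.16 to -3.79 by disease. In CNS LK over CNS HSC, C1qtnf12 ranged over 1.37 to 2.52 and Ap3s1 over 1.22 to 2.12, and without CNS HSC replicate 1 both passed (edgeR adjusted p = 0.036 and 0.017).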
